A study of Mus musculus with 2 samples.

Results

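The genes described here store iron, bring it into the cell, export it or sense it. They are the ferritin chains Fth1 and Ftl1, the importers Tfrc and Slc11a2, the exporter Slc40a1, and the regulators Fbxl5 and Ireb2. These 7 genes were taken by symbol from the 27998 genes listed for both libraries. The list was selected on the fold of stimulated over control counts, with Fth1 already known to differ, so all values below are a description with no test. The libraries come from cultured lung fibroblasts of C57BL/6 mice, a common inbred strain, read by droplet sequencing of transcript 3′ ends. A unique molecular identifier (UMI) marks each captured molecule. The stimulated library (1) holds wild-type cells treated at passage 3 for 14 days. The protocol lists 10 µM rosiglitazone, which activates the lipid regulator PPARG, 1 µM SB4315442 and 4 µM of the recombinant growth factor rhBMP4, used alone or together. The labels do not say which of these agents the stimulated library received. The control library (1) holds wild-type cells of the same lung, kept equally long with vehicle. The medium held 10% serum, or the supplement ITS+3 (1%) where a lipofibroblast phenotype was wanted. The labels do not say which was used for either library, or whether both had the same supplement. Such supplements usually contain transferrin, which carries iron.

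Cells bind iron-loaded transferrin through the transferrin receptor, reduce the iron in endosomes, and move it to the cytosol through the transporter encoded by Slc11a2. Iron not used at once is oxidised by the ferritin heavy chain and stored in a shell built of heavy and light chains, while ferroportin, the product of Slc40a1, carries iron out of the cell. When iron is scarce, iron regulatory proteins bind a hairpin called the iron responsive element. Binding near the start of an mRNA, as in the ferritins, blocks its translation, whereas binding behind the coding region of Tfrc protects the mRNA from decay. Ferritin protein can therefore change without a change in its mRNA, and only mRNA was measured here.

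The iron responsive elements that a pattern search found in the members are shown, since mRNAs holding one can share this control. A script searched the sense strand of GENCODE M21 transcripts (GRCm38) for C, then NNNNN, then CAGTGN, then NNNNN, and kept matches in which the 5 bases on either side of CAGTGN can pair, with G-T pairs allowed. Of 20297 genes with a 5′ UTR, 31 (0.153%) held such an element there, and of 20670 genes with a 3′ UTR, 128 (0.619%) did. The first 3 sequences lie in 5′ UTRs and the other 4 in the 3′ UTR of Tfrc, and capitals mark the loop CAGTGN.
Fth1, chr19:9982732-9982760, plus strand: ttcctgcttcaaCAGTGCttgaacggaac
Ftl1, chr7:45459779-45459807, minus strand: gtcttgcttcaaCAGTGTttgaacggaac
Slc40a1, chr1:45925465-45925493, minus strand: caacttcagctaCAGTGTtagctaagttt
Tfrc element 1, chr16:32631219-32631247, plus strand: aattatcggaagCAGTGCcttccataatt
Tfrc element 2, chr16:32631598-32631626, plus strand: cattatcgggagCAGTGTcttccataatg
Tfrc element 3, chr16:32631663-32631691, plus strand: ctatatcggagaCAGTGAtctccatatgt
Tfrc element 4, chr16:32631710-32631738, plus strand: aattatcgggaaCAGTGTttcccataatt
No match of this form was found in the UTRs of Slc11a2 (chr15), Fbxl5 (chr5) or Ireb2 (chr9). Nor was one found in Cdc42bpa or Epas1, both known for such an element. A missing match says only that these letters with these pairs were not in the annotated transcripts, so the search can miss elements.

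The stimulated library held 7468 kept cells with 117193148 UMIs and the control library 4703 kept cells with 88573140 UMIs. Median depth was 15380 UMIs per cell in the stimulated library and 19634 in the control library, and the median share of mitochondrial UMIs was 1.07% and 1.36%. As each group is 1 library, no difference can be set against replicates. Of 16 clusters found jointly, those named fibroblast-like held 82.3% of stimulated cells and 79.1% of control cells. The protocol holds cultures at passage 3 to be free of other cells, yet a macrophage-like cluster held 1 stimulated cell and 150 control cells, with 11 of 12 macrophage markers detected. The 12 fibroblast markers summed to 4768 CPM in the stimulated and 8897 CPM in the control library, with none at 0. The summed level of the macrophage markers was 14.4 CPM (UMIs of a gene per 1000000 UMIs of the library) in the stimulated library and 745 CPM in the control library, and each of the 12 was lower in the stimulated library by 1.5-fold or more, with Adgre1 at 0 in the stimulated library. The libraries shared 53 cell barcodes, 0.688% of the stimulated and 1.06% of the control barcodes.

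Fth1, the ferritin heavy chain gene, was the most abundant of all listed genes in the stimulated library and the 23rd most abundant in the control library. It stood at 15565 CPM (1824126 UMIs) in the stimulated library and at 5352 CPM (474075 UMIs) in the control library. The fold of stimulated over control CPM was 2.91, with an exact conditional-Poisson 95% interval of 2.90 to 2.92. Intervals here cover counting error only. Among the 8787 genes averaging 5 CPM or more over both libraries, 158 had a larger fold. Among the 146 averaging 1000 CPM or more, 8 were higher by 1.5-fold or more, Fth1 among them.

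Ftl1, the ferritin light chain gene, was the fourth most abundant gene in the stimulated library and the most abundant in the control library. Its level was 12739 CPM (1492924 UMIs) in the stimulated library and 15388 CPM (1362964 UMIs) in the control library, a fold of 0.828 (0.826 to 0.830). The light chain thus differed far less than the heavy chain, and in the other direction. As each molecule is counted once at its 3′ end, the chains can be set side by side without scaling by length. There were 1.22 Fth1 UMIs per Ftl1 UMI in the stimulated library and 0.348 in the control library, a 3.51-fold difference in this ratio, which does not depend on the scaling to library totals. Both chains together made up 2.83% of UMIs in the stimulated library and 2.07% in the control library, so their sum was 1.36-fold higher.

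The counts of Ftl1 carry a limit that those of Fth1 do not. Of 66 windows of 90 nt cut from the 3′ ends of Ftl1 transcripts, 64 (97.0%) match the listed gene Gm10116 with at most 2 mismatches, while no window of Fth1 matches another listed gene. Gm10116 stood at 85.4 CPM in the stimulated library and 28.3 CPM in the control library, 3.02-fold higher (2.89 to 3.16), whereas Ftl1 was lower. As a share of Ftl1, its UMIs ranged from 0.652% to 0.816% over 6 stimulated clusters and from 0.132% to 0.202% over 9 control clusters with at least 10 of its UMIs. The macrophage-like cluster of the control library lay within that range, at 0.184%. The share thus differed by library and hardly by cluster. A like split by library was seen in a pair outside the iron genes. UMIs of Gm10076, known as a copy of the ribosomal protein gene Rpl41, as a share of those of Rpl41 ranged from 43.4% to 45% over 6 stimulated clusters and from 9.34% to 10.2% over 10 control clusters. How the authors assigned reads that match near copies is not stated in the labels, so the level of Gm10116 and its fold are uncertain. The part of this in the fold of Ftl1 and in the heavy to light ratio was not tested. Summing Gm10116 with Ftl1 gave a fold of 0.832 for the sum and a 3.50-fold difference in the ratio.

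**Figure D1:**
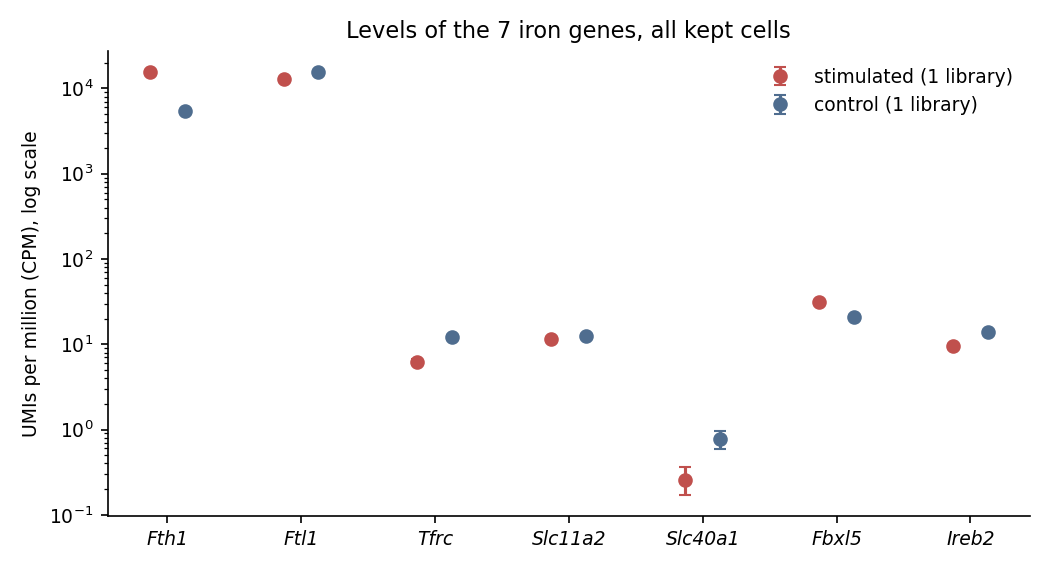
Levels of the 7 genes in each library, in CPM on a log axis, with exact Poisson 95% intervals (1 library per group; intervals narrower than the points are hidden). Fth1 is higher and Ftl1 slightly lower in the stimulated library, and the other 5 genes lie between 0.256 and 31.0 CPM.

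Macrophages are rich in ferritin, and the macrophage-like cells were almost all in the control library. In that cluster Fth1 reached 49307 CPM and Ftl1 50358 CPM. It held 1.96% of the control library's UMIs but 18.1% of its Fth1 UMIs and 6.42% of its Ftl1 UMIs. Without this cluster the fold of Fth1 was 3.48, and in fibroblast-like cells alone it was 3.64 (3.62 to 3.65), with 16057 CPM in stimulated and 4414 CPM in control cells. The fold of Ftl1 in fibroblast-like cells was 0.867 (0.865 to 0.869), and the heavy to light ratio was 1.25 in stimulated and 0.298 in control cells. Macrophage markers were still detected in fibroblast-like cells, at 14.3 CPM in stimulated and 78.2 CPM in control cells.

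The difference in Fth1 was spread over nearly all fibroblast-like cells. To compare cells of unequal depth, each was thinned to 5000 UMIs, which left out 760 stimulated and 626 control cells of all clusters that were shallower. In 6102 stimulated fibroblast-like cells the median was 68 Fth1 UMIs, with 33 at the 10th and 156 at the 90th percentile. In 3680 control cells the median was 20, with 10 and 36 at these percentiles. The control median was exceeded by 98.9% of stimulated cells, and the stimulated median by 0.951% of control cells. For Ftl1 the distributions overlapped widely, with medians of 60 UMIs in stimulated and 69 in control cells, and 33.9% of stimulated cells exceeded the control median. Fth1 UMIs outnumbered Ftl1 UMIs in 56.2% of stimulated and 1.3% of control fibroblast-like cells.

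**Figure D2:**
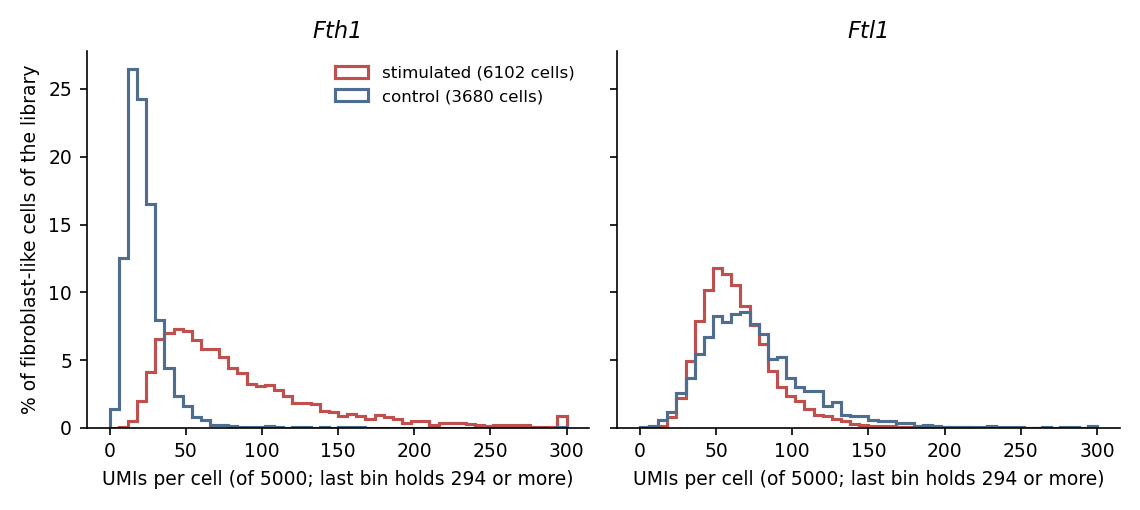
Distribution of Fth1 and Ftl1 UMIs per fibroblast-like cell after thinning each cell to 5000 UMIs, as percent of the cells of each library (6102 stimulated, 3680 control). The Fth1 curves are largely apart, with medians of 68 and 20, and the Ftl1 curves overlap, with medians of 60 and 69.

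Tfrc, the receptor that takes up transferrin, was lower in the stimulated library. Its level was 6.25 CPM (732 UMIs) in the stimulated library and 12.1 CPM (1071 UMIs) in the control library, 1.94-fold lower (1.76 to 2.13). In fibroblast-like cells it was 1.86-fold lower (1.69 to 2.05). At 5000 UMIs per cell, a Tfrc UMI was seen in 3.18% of stimulated fibroblast-like cells (exact binomial interval 2.75 to 3.65%) and 5.33% of control ones (4.62 to 6.10%). Without thinning these shares were 10.2% of stimulated and 22% of control cells. No cell type in these libraries is known to lack the receptor, so the share that free RNA gives could not be measured.

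Slc11a2 encodes the divalent metal transporter that moves iron out of endosomes. It differed little, with 11.5 CPM (1345 UMIs) in the stimulated library and 12.6 CPM (1115 UMIs) in the control library, a fold of 0.912 (0.841 to 0.988). The gene is known to make transcripts with and without an iron responsive element at their 3′ ends, and the counts per gene do not separate them.

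Slc40a1, the gene of the iron exporter ferroportin, was near the limit of detection in both cultures. There were 30 UMIs in the stimulated library (0.256 CPM) and 68 in the control library (0.768 CPM), 3.00-fold lower (1.92 to 4.77). The macrophage-like cluster, at 10.9 CPM, gave 19 of the 68 control UMIs, 27.9%. Without it the fold was 0.439, and in fibroblast-like cells, with 19 and 46 UMIs, it was 0.322 (0.178 to 0.561). Among control fibroblast-like clusters the level was highest in cluster 8, led by Hsd3b6 and Cxcl14, with 20 UMIs (2.82 CPM). The stimulated cluster 6, also led by Hsd3b6, had 10 UMIs (1.12 CPM). It is unnamed and so not among the fibroblast-like cells, which makes the fold in those cells one between unlike sets. Slc40a1 is the only member below a mean of 5 CPM.

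The members that regulate the iron responsive element system differed in opposite directions. Fbxl5 encodes an iron-binding ubiquitin ligase subunit that marks iron regulatory protein 2 for degradation when iron is plentiful. It was at 31.0 CPM (3637 UMIs) in the stimulated library and 20.8 CPM (1841 UMIs) in the control library, a fold of 1.49 (1.41 to 1.58). Ireb2 encodes iron regulatory protein 2 itself. It was at 9.43 CPM (1105 UMIs) in the stimulated library and 14.0 CPM (1239 UMIs) in the control library, 1.48-fold lower (1.37 to 1.61). In fibroblast-like cells the fold of Fbxl5 was 1.44 (1.36 to 1.53) and Ireb2 was 1.58-fold lower (1.44 to 1.72). Both genes are known to be controlled largely at the protein level, which was not measured.

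At a limit of 1.5-fold over all kept cells, 1 of the 7 genes was higher in the stimulated library (Fth1) and 2 were lower (Tfrc and Slc40a1). Of all 8787 genes averaging 5 CPM or more, 7.75% passed this limit as higher and 12% as lower. In fibroblast-like cells 1 member was higher (Fth1) and 3 were lower (Tfrc, Slc40a1 and Ireb2), against 7.97% higher and 12.5% lower of 8754 genes. Nothing is read from the members' count, since these differences entered their choice. Fbxl5 and Ireb2 lay just inside 1.5-fold over all kept cells, so their side of it moves with small changes in processing. The count in fibroblast-like cells also compares sets that differ in make-up. The stimulated set leaves out the unnamed cluster 6, where Ireb2 was at 14.9 CPM. The control set holds cluster 8, which shares leading genes with cluster 6 and had Ireb2 at 19.3 CPM. Slc40a1 is not among the genes averaging 5 CPM or more, and of the 6 members that are, 1 was higher and 1 lower over all kept cells. The median log2 fold of these 6 was -0.20, and that of the 8787 genes was -0.06.

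Fibroblast-like clusters came almost wholly from 1 library each, so 5 pairs of clusters, 1 from each library, were matched by the leading genes they share. The pair of clusters 0 and 2 shares Meg3 and Tshz2, clusters 1 and 3 share mitotic genes such as Top2a and Mki67, and clusters 5 and 11 share Ctsl, Hspa5 and Renbp. Clusters 6 and 8 share Hsd3b6, Gzme and Mcpt8, and clusters 4 and 7 are shallow. Fth1 was higher in the stimulated cluster of all 5 pairs. It was at 19304 CPM in cluster 0 and 4751 CPM in cluster 2, the largest of these folds (4.06, 4.04 to 4.08). The smallest fold was 2.13 (2.11 to 2.16), with 9997 CPM in cluster 6 and 4686 CPM in cluster 8. Ftl1 folds ran from 0.731 in clusters 4 and 7 to 1.13 in clusters 5 and 11, so the direction of Ftl1 was not the same in every pair. Cluster 6 is unnamed, with the muscle filament gene Des among its leading genes, while its partner 8 is fibroblast-like, so the fibroblast-like sets differ in make-up.

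Tfrc was lower in the stimulated cluster of each pair, by most in clusters 6 and 8, where it was at 3.03 CPM (27 UMIs) against 17.3 CPM (123 UMIs), a fold of 0.175 (0.111 to 0.267). In the other pairs its fold ran from 0.443 to 0.576, and the interval in the shallow pair, with 5 and 9 UMIs, included 1. Fbxl5 folds ran from 1.27 to 1.71. Ireb2 folds ran from 0.622 to 0.774 except in the shallow pair, where 14 and 11 UMIs gave 1.24 (0.521 to 3.01). Slc40a1 counts were too low to compare within pairs, with 0 to 20 UMIs per cluster.

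**Figure D3:**
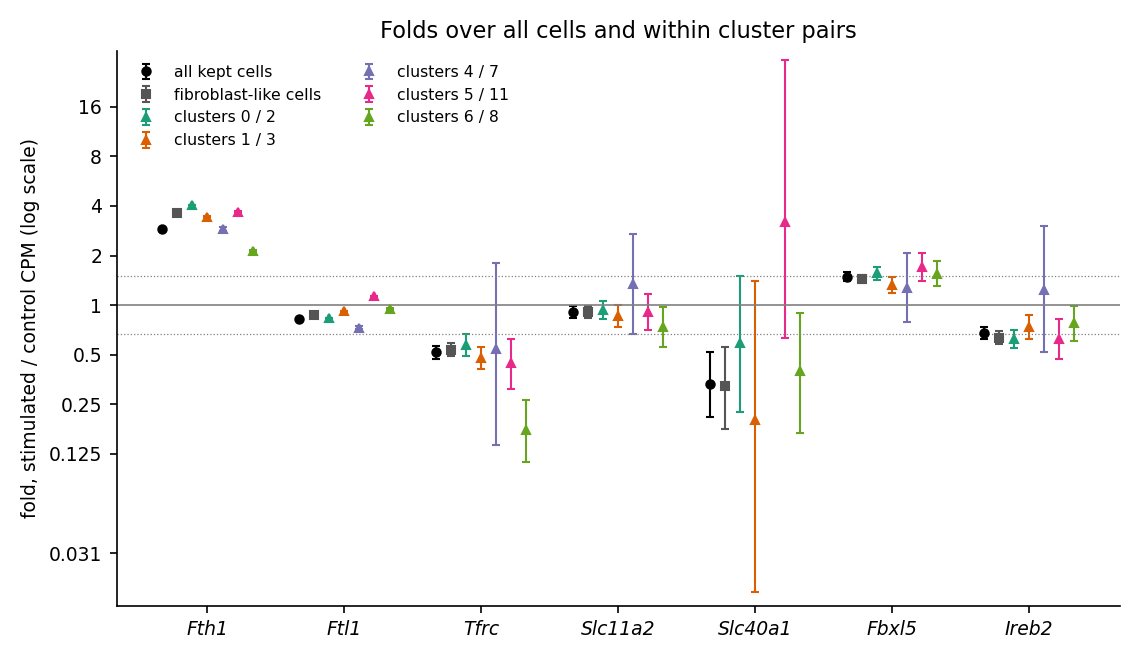
Fold of stimulated over control CPM on a log axis with exact 95% intervals for counting error, over all kept cells, over fibroblast-like cells and within 5 cluster pairs (stimulated cluster first). Dotted lines mark 1.5-fold; Slc40a1 in clusters 4 and 7 is left out because cluster 4 had 0 UMIs. Fth1 lies above 2 in each set of cells and Tfrc below 0.6.

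The ratio of heavy to light chain UMIs separated the fibroblasts of the libraries. It ran from 1.05 to 1.40 over the 3 fibroblast-like stimulated clusters with at least 50 cells and from 0.280 to 0.366 over the 5 control ones. The lowest stimulated value was 0.823 in the unnamed cluster 6. Other cell types of the control library had ratios unlike its fibroblasts, at 0.979 in macrophage-like and 0.792 in mesothelial-like cells. The mesothelial-like cluster, 57 control cells, had 9618 CPM of Fth1 and 12151 CPM of Ftl1.

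**Figure D4:**
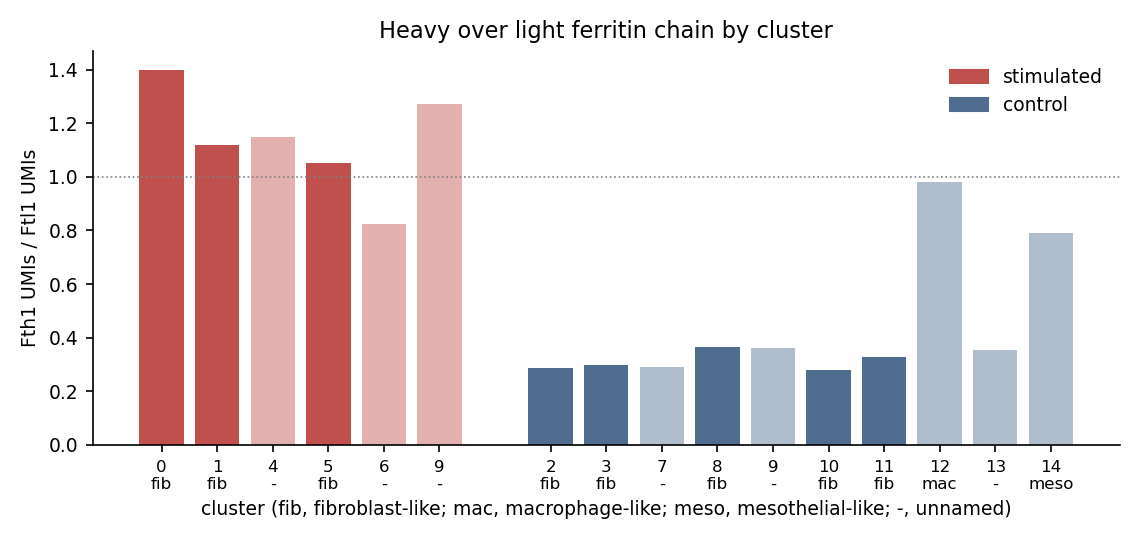
Fth1 UMIs per Ftl1 UMI in every cluster with at least 50 cells in the library (6 stimulated, 10 control); full colour marks fibroblast-like clusters and pale colour the others. Fibroblast-like clusters lie between 1.05 and 1.40 in the stimulated library and between 0.280 and 0.366 in the control library.

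Dividing cells need iron and are known to carry more transferrin receptor. Cells with at least 5 UMIs of 12 cycling genes, at 5000 UMIs per cell, were set against the other fibroblast-like cells of their own library. In the stimulated library Tfrc was at 8.05 CPM in 1565 cycling cells and 6.04 CPM in 4537 other cells, a fold of 1.33 whose interval (0.973 to 1.81) included 1. In the control library it was at 19.8 CPM in 595 cycling cells and 9.34 CPM in 3085 other cells, 2.12-fold higher (1.54 to 2.90). Whether these folds differ between the libraries was not tested. Fth1 was lower in cycling cells of both libraries, at 13563 CPM against 17941 CPM in the stimulated library and 3722 CPM against 4626 CPM in the control library. Between libraries, Fth1 was 3.64-fold higher among cycling cells and 3.88-fold higher among the others. Tfrc had a fold of 0.406 (0.280 to 0.589) among cycling cells and 0.647 (0.508 to 0.823) among the others.

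Within each library the cells high in Fth1 were low in contractile genes. Pearson correlations of log counts were taken over the thinned fibroblast-like cells for 3381 genes with at least 25 CPM in both libraries, and all values share the fixed total of 5000 UMIs per cell. Ranked by the mean of the r values of both libraries, Ftl1 was the gene most like Fth1, with r = 0.19 over 6102 stimulated cells and r = 0.49 over 3680 control cells. The metallothionein genes Mt1 and Mt2, which encode metal-binding proteins, followed, with r = 0.39 and 0.31 in stimulated and 0.22 for each in control cells, and then Eef1a1 and Fn1 with a mean r of 0.20 each. Within stimulated cells alone, Mt1, Mt2, Fn1 (r = 0.30) and Eef1a1 (r = 0.23) were more like Fth1 than Ftl1 was. The most opposite gene was Acta2, the smooth muscle actin that marks myofibroblasts, with r = -0.42 in stimulated and -0.46 in control cells, followed by Tagln. When the cells of a library were put in 3 equal groups by Acta2, Fth1 was at 21202, 17257 and 11995 CPM from the lowest to the highest group of stimulated cells, and at 5733, 4306 and 3399 CPM in control cells. The groups were cut within each library and are not matched between libraries. Their median Acta2 UMIs per cell were 1, 3 and 8 in stimulated cells and 4, 9 and 24 in control cells. The 8 smooth muscle and pericyte markers, Acta2 among them, summed to 1181 CPM in stimulated and 4330 CPM in control fibroblast-like cells. Their part in the fold of Fth1 was not tested. In the same order Ftl1 was at 13494, 13306 and 11688 CPM in stimulated and 17664, 15368 and 12018 CPM in control cells.

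The genes most like Ftl1 other than Fth1 were the selenoprotein gene Sepw1 (mean r of 0.27), Serf2, Tpt1 and the copper chaperone gene Atox1. In 3 equal groups of stimulated cells by Mt1, the heavy to light ratio was 0.978, 1.41 and 1.53 from lowest to highest, while in control cells it was 0.302, 0.292 and 0.301. These groups are not matched between libraries. Their median Mt1 UMIs per cell were 35, 71 and 118 in stimulated cells and 5, 12 and 25 in control cells. Mt1 was also chosen for its likeness to Fth1 in these same cells. For Tfrc no gene reached a mean r above 0.05, which in counts this sparse is no finding.

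Other genes of iron handling were counted from 9 lists with 86 different genes. Among other iron uptake genes 7 of 17 averaged 5 CPM or more, of which 4 were higher in the stimulated library by 1.5-fold or more and 1 was lower. Of all 8787 genes, 7.75% were higher and 12% lower by this limit, which is also the background for the lists that follow. The median log2 fold of the 7 genes was 0.97, against -0.06 for all genes. The higher ones were Steap1, Steap2 and Steap3, of the STEAP metalloreductase family, and the zinc and iron importer gene Slc39a14. Steap3, the main iron reductase of the transferrin cycle in red cell precursors, was at 11.5 CPM in the stimulated library and 1.60 CPM in the control library, 7.15-fold higher (6.01 to 8.56). Steap3 reached the mean of 5 CPM only through the stimulated library, so its place in the count and median above follows from that filter. Slc39a14, which takes up iron not bound to transferrin, stood at 55.8 CPM in the stimulated library and 21.2 CPM in the control library, a fold of 2.63 (2.50 to 2.77). Steap2 stood at 104 CPM in the stimulated library and 53.1 CPM in the control library, and Steap1 at 58.2 and 29.6 CPM, both 1.96-fold higher. The most abundant gene of this list, the haem transporter gene Slc48a1, had a fold of 0.733. Trf, the transferrin gene, was 1.87-fold lower (1.70 to 2.07) over all kept cells, with a fold of 0.324 in fibroblast-like cells. Of its end windows 68.7% are shared with another listed gene.

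In the export list Cp alone reached a mean of 5 CPM, and it did so only through the stimulated library. It encodes ceruloplasmin, the copper oxidase that loads exported iron onto transferrin, and was at 18.8 CPM in the stimulated library and 2.90 CPM in the control library, 6.47-fold higher (5.68 to 7.39). Iron chaperones and ferritin turnover genes (3 measured) had no member past 1.5-fold. Neither had the list of Aco1, the gene of iron regulatory protein 1, and partners of the iron regulatory proteins (4 measured). Aco1 stood at 8.23 CPM in the stimulated and 11.3 CPM in the control library, a fold of 0.728 (0.666 to 0.796). The most abundant genes of these lists were the iron chaperone gene Pcbp2, with a fold of 1.08, and the ligase subunit gene Rbx1, with 0.964. Of 6 other mRNAs known for an iron responsive element, 2 averaged 5 CPM or more, with 1 lower by 1.5-fold or more and 1 between the bounds. The lower one was Cdc42bpa, which encodes a kinase (1.89-fold lower, 1.80 to 1.99).

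Mitochondrial iron and iron sulfur cluster genes mostly lay between the bounds, with 14 of 17 measured genes there and a median log2 fold of -0.11. The mitochondrial iron importer genes Slc25a28 and Slc25a37 were 1.76-fold (1.62 to 1.90) and 1.51-fold higher (1.40 to 1.64), and 21.4% of the end windows of Slc25a37 are shared with another gene. Hspa9, a mitochondrial chaperone gene, was 1.68-fold lower (1.64 to 1.72), and the most abundant gene, Glrx5, had a fold of 0.878. None of the 12 haem synthesis and breakdown genes passed 1.5-fold in either direction (median log2 fold -0.01). In this list Blvrb, a biliverdin reductase gene, was the most abundant, with a fold of 1.06. Hmox1, the haem oxygenase that frees iron from haem, was at 89.6 CPM in the stimulated library and 81.4 CPM in the control library.

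Genes of lipid peroxide defence and ferroptosis (iron-dependent cell death) gave 2 higher and 2 lower of 8 measured. Of all genes, 7.75% were higher and 12% lower. The median log2 fold of the 8 was -0.20. Of 10 measured targets of NRF2, an oxidant-sensing factor, 1 was higher and 4 were lower, beside the same shares of all genes (median log2 fold -0.15). Nqo1, a classical NRF2 target, stood at 8.66 CPM in the stimulated library and 29.3 CPM in the control library, 3.38-fold lower (3.14 to 3.64), and Me1 was 1.75-fold lower (1.67 to 1.83). The glutathione synthesis genes split, with Gclc 3.00-fold higher (2.82 to 3.20) and Gclm 1.66-fold lower (1.60 to 1.73). Slc7a11, which brings in cystine for glutathione, was 1.53-fold lower (1.38 to 1.71) over all cells, with a fold of 0.693 in fibroblast-like cells. Lpcat3, a phospholipid remodelling enzyme gene, was 1.84-fold higher (1.75 to 1.93). Gpx4, the enzyme that reduces lipid peroxides, had a fold of 0.847, and Prdx1 one of 1.01.

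**Figure D5:**
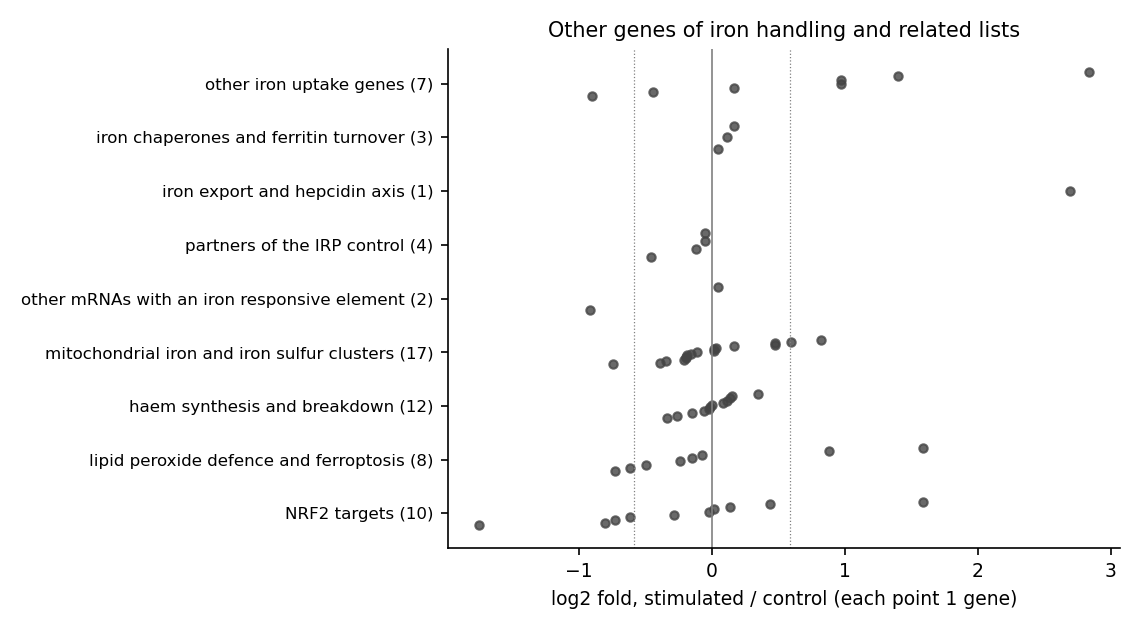
Log2 fold of stimulated over control CPM for the members of 9 lists averaging 5 CPM or more, 1 point per gene and the number of genes in brackets (4 genes are in 2 lists). Dotted lines mark 1.5-fold; 4 of 7 other iron uptake genes lie to the right of them and none of 12 haem genes lies outside them.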

How the data were processed

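The authors deposited raw UMI counts, 1 matrix for each library. The matrices carry software version 3.0.2, per the file headers, whereas Cell Ranger 1.3.1 and Seurat 3.0.0 stand in the submitters' processing notes. Which genome build and annotation the authors used is not stated in the labels. Cells needed 500 genes or more and no more than 20% mitochondrial UMIs, which left out 212 and 18 barcodes of the stimulated library and 269 and 44 of the control library. Doublets were not removed. Cells were clustered together without integration (scanpy 1.11.5: 2000 variable genes, 30 components, 15 neighbours, Leiden resolution 0.5) and named from fixed marker lists. Counts were summed per library, divided by the library total (CPM) and compared as folds with exact conditional-Poisson intervals. The code for these intervals was run on libraries simulated as Poisson counts. Those hold counting error only, so they say nothing of variation between cells or cultures. Genes sharing 3′ ends were found with minimap2 2.31 in the last 400 nt of GENCODE M21 transcripts. No test was made, as each group has 1 library. The members and lists were chosen with earlier results of these data known. Named genes are the members, their copies, in each list the 3 largest folds past 1.5-fold each way and the most abundant gene, and the 5 genes most like a member. A gene that this rule names is not reported here. Opposite genes, Hmox1, Steap1 and Aco1 were added after their values were seen. TMM factors came from edgeR 4.0.16, and the closing section gives the other alternatives.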

Additional observations from a re-analysis of the deposited data

How the results depend on the processing

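No paired analysis was possible because each group has 1 library. The fold of Fth1, 2.91 over all kept cells, was 2.99 without mitochondrial and ribosomal protein genes, 3.06 under TMM scaling, 3.04 under median of ratios scaling, 3.48 without the macrophage-like cluster, 3.64 in fibroblast-like clusters, 3.03 in cells not in cycle, 2.55 with cells weighted equally and 2.62 after thinning to 5000 UMIs. The fold of the heavy to light ratio, 3.51, was 4.01, 4.19, 3.66, 3.20 and 3.32 under the last 5 of these, and 3.50 with Gm10116 added to Ftl1. The count of higher members was 2 in place of 1 under the first 3 scalings and in cells not in cycle, through Fbxl5 (folds of 1.54, 1.57, 1.56 and 1.52). The count of lower members was 2, or 3 through Ireb2 in fibroblast-like clusters, in cells not in cycle, with equal weights and after thinning, and 1 at 2-fold. No fold of a member changed direction under any alternative tried. Tfrc ranged from 0.514 to 0.552 and Slc40a1 from 0.270 to 0.439. The share of all genes past 1.5-fold was 16.8% higher and 25.1% lower with no filter on level, where low counts pass more often. Fth1 has no listed copy, so that alternative gave no value. At 30 and 68 UMIs, depth limits Slc40a1 most.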

Other observations

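Among the iron genes averaging under 5 CPM, those picked here had folds in both directions with counting intervals that leave out 1. Others had intervals that included 1. With no filter on level, 16.8% of all genes were higher and 25.1% lower by 1.5-fold or more. Scara5, known as a ferritin receptor, was at 2.68 CPM in the stimulated library and 0.169 CPM in the control library (15.8-fold higher, counting interval 9.45 to 28.6). Steap4, a metalloreductase gene, stood at 4.31 CPM in the stimulated and 0.610 CPM in the control library (fold 7.07, 5.33 to 9.54, and 12.1 in fibroblast-like cells), and Lcn2, whose product binds iron carried by siderophores, at 4.85 and 1.06 CPM (fold 4.57, 3.67 to 5.74). Epas1, an oxygen-sensing factor whose mRNA is known to hold an iron responsive element, stood at 4.64 CPM in the stimulated and 1.85 CPM in the control library (fold 2.51, 2.10 to 3.00). Lower in the stimulated library were Slc46a1, which encodes a folate and haem transporter, with 380 UMIs in the stimulated and 471 in the control library (1.64-fold lower, 1.43 to 1.88), and the iron oxidase gene Heph, with 40 and 63 UMIs (2.08-fold lower, 1.38 to 3.18). Lower too were Tfr2, the second transferrin receptor gene, with 15 and 25 UMIs (2.21-fold lower, 1.12 to 4.50), Slc39a8, a metal importer gene, with 124 and 139 UMIs (1.48-fold lower, 1.16 to 1.90), and Hfe (1.40-fold lower, 1.15 to 1.70). In fibroblast-like cells the folds of Slc39a8 and Hfe were nearer to 1, at 0.766 and 0.854. Those of Slc46a1, Heph and Tfr2 were 0.582, 0.465 and 0.437. All genes of this paragraph were picked after their values were seen.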
